A study of Mus musculus with 30 samples.

Results

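The expression of 40 S phase and mitosis genes was followed across 30 whole-lung expression arrays. Of the 40 genes, 39 had a probe set named by their symbol, and for Ccnb1 (cyclin B1) none carried its symbol in the annotation used here. After a filter on dim probe sets, 34 of them were among the 13089 genes tested, of 18193 named. Each array held the lung RNA of a single C57BL/6 mouse, either a juvenile of 21 days or an adult of 16 weeks. At each age, controls were untreated and breathed spontaneously. MV animals received mechanical ventilation for 2 h at a tidal volume of 15 mL/kg, 80 breaths per minute, 30% oxygen and an end-expiratory pressure of 2 cmH2O. LPS animals inhaled aerosolized lipopolysaccharide of E. coli (20 mL at 0.1 mg/mL) over 30 min inside a closed chamber, then breathed spontaneously for 2 h. LPS+MV animals inhaled the same aerosol and were then ventilated for 2 h. Groups held 4 mice, except for 3 in juvenile MV and 3 in juvenile LPS+MV. The series asks how the lung's response to inhaled LPS, ventilation and both together depends on age. No study period is stated for the controls, and the labels give neither sex nor litter nor array batch.

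These genes serve dividing cells. Before S phase the MCM complex is loaded onto origins as the helicase of replication, ribonucleotide reductase and thymidine kinase supply deoxynucleotides, and the sliding clamp Pcna holds polymerases on DNA. In mitosis, cyclin-bound Cdk1 drives entry, the spindle checkpoint restrains the anaphase promoting complex until kinetochores are attached, and kinesins and bundling proteins build the spindle and the midzone. E2F factors switch on many replication genes at the G1 to S transition, while the MuvB complex acts later in the cycle through a promoter element named CHR, often with a neighbouring CCAAT box. The lung of a young mouse is still growing and adding alveolar surface, whereas few cells divide in an undisturbed adult lung.

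The promoters of 4 members that fell with LPS in juveniles are shown because these elements lie in them. Each is 300 bases from RefSeq (build GRCm38.p6), from 250 bases before to 50 after the annotated start, written 5′ to 3′ on the gene's own strand. Capitals mark CHR (TTTGAA or TTCGAA), the box of the letters CCAAT and E2F sites (TTCCCGC or TTGGCGC or TTCGCGC or TTGCCGC), searched on both strands. Matches of different motifs may overlap, as they do near the end of the Mcm7 window.
Mcm7, chr5:138171834-138172133, minus strand: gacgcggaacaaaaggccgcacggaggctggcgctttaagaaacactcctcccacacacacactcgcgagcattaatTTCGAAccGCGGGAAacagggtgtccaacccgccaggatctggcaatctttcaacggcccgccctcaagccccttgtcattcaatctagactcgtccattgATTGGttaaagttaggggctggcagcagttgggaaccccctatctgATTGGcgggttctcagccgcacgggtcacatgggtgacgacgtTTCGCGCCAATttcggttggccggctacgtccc
Cdk1, chr10:69352863-69353162, minus strand: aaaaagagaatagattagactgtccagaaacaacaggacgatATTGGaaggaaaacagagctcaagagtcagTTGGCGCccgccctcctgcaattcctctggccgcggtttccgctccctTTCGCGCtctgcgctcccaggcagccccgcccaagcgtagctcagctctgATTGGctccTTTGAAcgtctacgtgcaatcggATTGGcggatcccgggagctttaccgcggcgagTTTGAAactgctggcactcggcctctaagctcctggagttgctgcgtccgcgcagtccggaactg
Top2a, chr11:99024140-99024439, minus strand: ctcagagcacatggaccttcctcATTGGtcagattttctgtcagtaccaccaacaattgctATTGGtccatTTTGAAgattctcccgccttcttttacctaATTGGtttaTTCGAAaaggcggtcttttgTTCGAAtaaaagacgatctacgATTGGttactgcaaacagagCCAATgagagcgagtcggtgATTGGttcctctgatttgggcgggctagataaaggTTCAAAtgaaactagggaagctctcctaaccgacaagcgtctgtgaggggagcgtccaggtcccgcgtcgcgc
Mki67, chr7:135716330-135716629, minus strand: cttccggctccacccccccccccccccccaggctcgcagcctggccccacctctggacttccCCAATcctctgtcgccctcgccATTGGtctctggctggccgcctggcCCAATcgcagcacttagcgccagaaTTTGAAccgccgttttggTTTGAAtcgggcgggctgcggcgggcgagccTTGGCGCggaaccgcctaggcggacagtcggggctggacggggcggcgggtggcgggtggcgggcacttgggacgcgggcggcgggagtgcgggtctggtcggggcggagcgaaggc
The Cdk1 window, of the kinase that drives mitosis, holds CHR matches at positions -71 and -15 from the start, and the Top2a window holds 4 CHR and 6 CCAAT matches and no E2F match. Of the 40 genes, 32 had a window in the table, 35 windows in all. Mcm7, Uhrf1 and Prc1 each had a further window, which is counted as well, and those of Prc1 overlap. The Mcm7 window shown held 1 CHR, 3 CCAAT and 3 E2F matches. Its other window, at chr5:138171217-138171516, held 0 CHR, 1 CCAAT and 1 E2F match. The genes not listed there were Aurkb, Ccna2, Ccne2, Foxm1, Gins2, Kif20a, Mcm4 and Tpx2. CHR was present in 19 of the 35 windows (54.3%), against 19.2% of all 32851 promoter windows. CCAAT was present in 29 (82.9%, against 37.4%) and an E2F site in 14 (40%, against 9.6%). The motifs were spread unevenly over the roles. Origin licensing genes had an E2F site in 6 of 7 windows and CHR in 2 of 7, while checkpoint genes had CHR in 4 of 4 and an E2F site in 0 of 4. Spindle and cytokinesis genes had CHR in 5 of 6 windows and an E2F site in 1 of 6. A match is a stretch of letters, and binding was not measured here.

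The arrays were comparable in overall brightness, with medians of 21.6 to 22.8 and upper quartiles of 89.1 to 111 intensity units. The surfactant gene Sftpc, which defines alveolar type 2 cells, was between 18100 and 22200 on every array, the level of an abundant lung transcript. Members were dim to moderate, with mean intensities from 18.2 for Kif11 to 1306 for Pcna. Of the 34 tested members, 21 were above the own array's median on all 30 arrays, and all 34 would have passed the filter without the juvenile controls. The 5 found but not tested were Cdc6 (10.4 to 28.3), Tyms (8.62 to 15.2), Ccne2 (7.29 to 61.3), Aurkb (8.14 to 67.2) and Kif20a (9.36 to 70.0), and each was highest on juvenile control replicate 1. Below, a difference is on the scale of log2(intensity + 32), which understates the change of dim genes, and is given ± its standard error (SE) from a limma fit over all 8 groups. A gene is said to have risen or fallen when its p, adjusted by Benjamini and Hochberg over the 13089 genes of a comparison, was under 0.05. Shares of all genes that passed, rose or fell come from this fit at this threshold. Counts at an unadjusted p, or under another fit, have no such share beside them and show no excess by themselves.

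The juvenile controls stood apart from each other in these genes. The mean of log2(intensity + 32) over the 34 members was 8.0, 7.22, 7.05 and 6.57 on juvenile control replicates 1 to 4. On the other juvenile arrays it lay between 6.32 and 7.04, and on adult arrays between 6.28 and 6.69. Replicate 1 was the highest juvenile control for 33 of the 34 members and replicate 4 the lowest for 33. The median SD of a member among the juvenile controls was 0.59, against 0.118 for all genes tested, and it was widest for Cdc20 (1.19). In the other groups the median SD of members was 0.10 to 0.24, against 0.088 to 0.111 for all genes. Counts of genes called against the juvenile controls are therefore also given without some of these arrays and with the compared groups alone in the fit. Replicates 1 and 4 are the extremes in these same members, so leaving out both narrows the control spread. Counts without both are thus not an independent check.

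**Figure D1:**
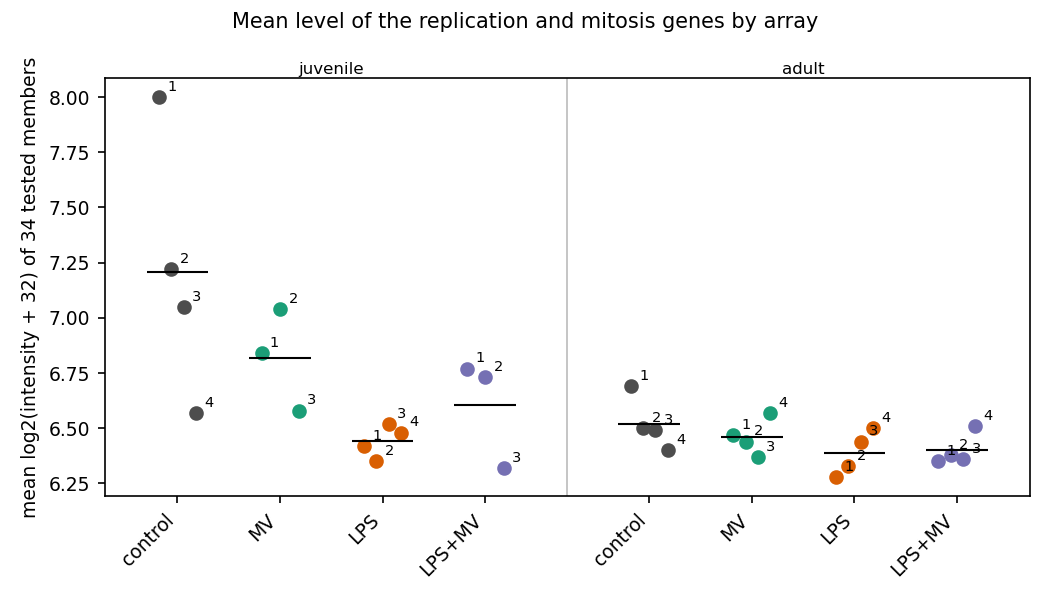
Mean of log2(intensity + 32) over the 34 tested members on each of the 30 arrays (vertical axis) by group (horizontal axis), with points numbered by replicate and lines at group means. Juvenile controls run from 6.57 to 8.0, the 4 juvenile LPS arrays from 6.35 to 6.52, and adult arrays from 6.28 to 6.69.

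Between the untreated groups, 29 of the 34 members were lower in adults and 0 higher, with a median difference of -0.63 (all genes, 0.012). Of all genes tested, 25.2% passed in this comparison and 10.1% were lower in adults. Nusap1, a microtubule bundling protein of the spindle, had the smallest p (-1.35 ± 0.22, limma adjusted p = 6.3e-05). It was followed by the clamp Pcna (-0.63 ± 0.11, adjusted p = 0.00015), the helicase cofactor Gins2 (-0.30 ± 0.07, 0.0016) and the spindle assembly factor Tpx2 (-0.56 ± 0.13, 0.0016). The decatenating enzyme Top2a (-1.43 ± 0.35), Cdk1 (-1.33 ± 0.31), the proliferation marker Mki67 (-1.32 ± 0.30) and the ribonucleotide reductase subunit Rrm2 (-1.27 ± 0.30) were the other members with the widest differences. The groups overlapped for most members. Gins2, Kif23, Tpx2 and Nusap1 were the 4 members of which every adult control lay below every juvenile control, against 8.01% of all genes tested. Mcm2, Mcm4, Mcm6, Ccne1 and Foxm1 did not pass, with differences of -0.12 to -0.40. With the 2 control groups alone in the fit, 8 members passed. Without juvenile control replicate 1 the median difference was -0.36 with 21 members called, without replicate 4 it was -0.81 with 32, and without both 28 passed. Leaving out replicate 1 made the difference of 22 of the 29 called members smaller by more than 1.5 times, and 21 of the 29 still passed.

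LPS inhalation was followed by lower levels of nearly the whole set in juveniles. Of the 34 members 29 fell and 0 rose 2 h after the aerosol, with a median difference of -0.70 (all genes, -0.029). In this comparison 22.9% of all genes tested passed and 13.3% fell. All 4 LPS arrays lay below all 4 controls for 16 members, although control replicate 4 was low (all genes tested, 11.8%). Members fell in every role except the G1 to S cyclins, where Ccne1 alone was tested and Ccne2 was too dim. The counts by role were 6 of 7 for origin licensing, 3 of 3 for nucleotide supply, 3 of 3 for the fork, 5 of 6 for mitotic kinases and cyclins, 3 of 4 for the checkpoint, 3 of 3 for the centromere and 5 of 6 for the spindle. In bulk lung RNA, fewer cells of a type and less RNA per cell cannot be told apart. With the 2 groups alone in the fit 20 members passed, and with any single array left out 28 to 31 passed. Without control replicates 1 and 4 together, which narrows the control spread, the same 29 members passed. Without control replicate 1 the median difference was -0.46, and 15 of the 29 called members had a difference smaller by more than 1.5 times.

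Among the genes that license origins, Mcm7, a helicase subunit and the brightest of its role, was at 510.1, 357, 324 and 259.6 in juvenile controls. It was at 214, 251, 224 and 199 after LPS, 217, 293 and 198.5 after MV, and 188, 164 and 165 after LPS+MV. The LPS and the LPS+MV arrays all lay below the lowest control, and a single MV array lay above it. Mcm7 fell by 0.60 ± 0.13 with LPS (limma adjusted p = 0.0013), by 0.54 ± 0.14 with MV (0.017) and by 0.92 ± 0.14 with LPS+MV (2.1e-05). Mcm5 fell by 1.08 ± 0.21 (0.00029) with LPS, Mcm6 by 0.74 ± 0.15 (0.00061), Mcm2 by 0.60 ± 0.12 (0.00046) and Mcm3 by 0.38 ± 0.09 (0.0015). Mcm4 did not pass (-0.21 ± 0.12, adjusted p = 0.25).

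Of the nucleotide suppliers, Rrm2, the small subunit of ribonucleotide reductase that is made in S phase, had the widest difference of any member with LPS. It was at 402, 190.5, 195 and 77.4 in juvenile controls and at 40.6, 31.8, 45.4 and 38.9 after LPS. MV arrays were at 138, 215 and 65.7, and LPS+MV arrays at 104, 81.9 and 26.1. Every LPS array lay below every control, while the MV and LPS+MV groups each overlapped the controls. Rrm2 fell by 1.64 ± 0.30 with LPS (adjusted p = 0.00017) and by 1.20 ± 0.33 with LPS+MV (0.0061), and differed by -0.47 ± 0.33 with MV (0.40). With a pseudocount of 1 in place of 32 the Rrm2 difference with LPS was -2.22. The large subunit Rrm1 was at 266, 163, 167 and 138 in controls, 114, 130.3, 117 and 109 after LPS, 121, 141 and 123 after MV, and 118, 115 and 115 after LPS+MV. Rrm1 fell by 0.49 ± 0.12 with LPS (0.0022), by 0.39 ± 0.12 with MV (0.039) and by 0.51 ± 0.12 with LPS+MV (0.0026).

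At the fork, Pcna was far brighter than the other members, at 2214, 1695, 1755 and 1165 in juvenile controls. It was at 1200, 1217, 1327 and 1212 after LPS, 1301, 1410 and 1146 after MV, and 1285, 1292 and 1150 after LPS+MV. Control replicate 4 was below most treated arrays, so each treated group overlapped the controls. Pcna fell by 0.42 ± 0.11 with LPS (limma adjusted p = 0.0073), by 0.37 ± 0.12 with MV (0.048) and by 0.42 ± 0.12 with LPS+MV (0.010). Top2a, which untangles replicated DNA, was at 693, 260.3, 164 and 86.3 in controls and 41.8, 36.2, 78.8 and 64.2 after LPS. After MV it was at 149, 213 and 85, and after LPS+MV at 160.5, 149.5 and 49.3. Top2a fell by 1.63 ± 0.35 with LPS (0.0011) and did not pass with LPS+MV (-0.90 ± 0.38, 0.073) or MV (-0.61 ± 0.38, 0.33). Uhrf1, which guides maintenance methylation to new DNA, fell by 0.60 ± 0.16 with LPS (0.0070).

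Ccne1 (cyclin E1), which activates Cdk2 at the start of S phase and was the tested member of the G1 to S role, did not follow the others in juveniles. Its intensity was 38.7, 35.3, 29.7 and 28.6 in controls, 32, 28.4, 33.8 and 39.9 after LPS, 32.1, 30.2 and 34.7 after MV, and 33.2, 33.3 and 29.6 after LPS+MV. The 4 groups overlapped, and the difference with LPS was 0.01 ± 0.06 (limma adjusted p = 0.93).

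Among the mitotic kinases and cyclins, Cdk1 was at 548, 256, 160.5 and 80.1 in juvenile controls, 51.3, 38.4, 90.7 and 70.7 after LPS, 150.3, 152 and 74.3 after MV, and 117, 114 and 35.5 after LPS+MV. It fell by 1.40 ± 0.31 with LPS (limma adjusted p = 0.0013) and by 1.11 ± 0.34 with LPS+MV (0.013). An LPS array, at 90.7, lay above control replicate 4. Ccna2 (cyclin A2) fell by 1.21 ± 0.30 with LPS and Ccnb2 (cyclin B2) by 1.11 ± 0.27. The mitotic kinases Aurka and Plk1 fell by 0.68 ± 0.19 (0.011) and 0.42 ± 0.13 (0.015). Without control replicate 1 these differences were -0.35 ± 0.12 (limma adjusted p = 0.046) and -0.20 ± 0.07 (0.057), and the Plk1 call was also lost without LPS replicate 1 (0.051). Foxm1, the transcription factor that drives many mitotic genes, did not pass (-0.10 ± 0.07, adjusted p = 0.35).

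Cdc20, which activates the anaphase promoting complex, was at 944, 319, 208 and 106 in juvenile controls, 75, 42.4, 102 and 112 after LPS, 209, 213 and 104 after MV, and 126, 131 and 55.8 after LPS+MV. It fell by 1.55 ± 0.35 with LPS (adjusted p = 0.0015) and by 1.32 ± 0.38 with LPS+MV (0.0086), with both groups overlapping the controls. The checkpoint kinase Bub1 fell by 0.87 ± 0.17 with LPS (0.00025), and every LPS array lay below every control. Its relative Bub1b, also a checkpoint protein, did not pass (-0.22 ± 0.14, 0.30). The centromeric histone Cenpa was at 199.9, 105, 83.5 and 44.4 in controls and 41.1, 32.2, 42.7 and 47.3 after LPS, and it fell by 0.83 ± 0.19 (0.0022). After MV Cenpa was at 97.9, 91.9 and 44.9, and after LPS+MV at 48.9, 47 and 44.8. Birc5 and Cdca8, subunits of the chromosomal passenger complex, fell by 1.32 ± 0.28 (0.00080) and 0.85 ± 0.23 (0.0072) with LPS.

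Of the spindle and midzone genes, Nusap1 was at 389, 182, 165 and 128 in juvenile controls, 126, 83, 94.7 and 61.5 after LPS, 102, 133 and 143 after MV, and 131, 156 and 50.1 after LPS+MV. It fell by 0.93 ± 0.22 with LPS (adjusted p = 0.0028). The midzone proteins Prc1 and Kif23 fell by 1.04 ± 0.25 (0.0030) and 0.83 ± 0.18 (0.00088), and the spindle motor Kif11 by 0.50 ± 0.13 (0.0067). Hmmr, a spindle-associated protein, did not pass (-0.37 ± 0.15, 0.066). Mki67, which coats mitotic chromosomes and is used to count dividing cells, was at 574, 279, 189 and 98.9 in controls and 80.7, 53.3, 98.6 and 87.6 after LPS. After MV it was at 177, 252 and 136, and after LPS+MV at 211, 197 and 93.2. Mki67 fell by 1.30 ± 0.30 with LPS (0.0020), each LPS array lying below each control, and did not pass with LPS+MV (-0.51 ± 0.32, 0.25) or MV (-0.33 ± 0.32, 0.57).

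**Figure D2:**
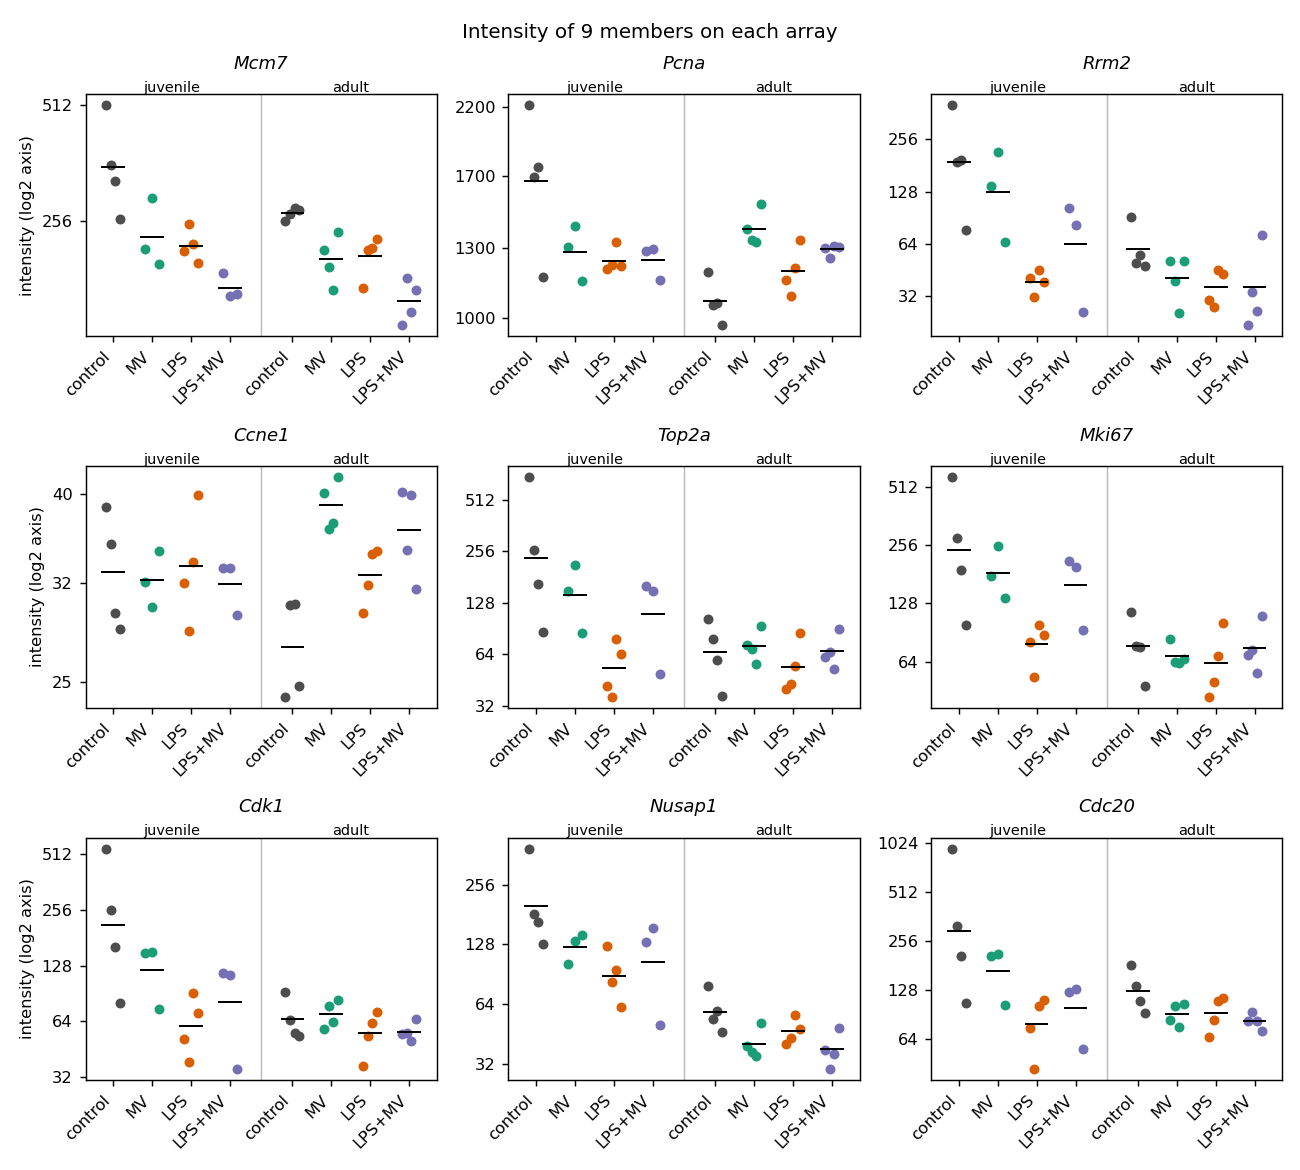
Intensity (vertical axis, log2 scale) of 9 members on each of the 30 arrays by group (horizontal axis), with each point an array and lines at the group mean of log2(intensity + 32) turned back to intensity. Mki67 in juvenile controls spans 98.9 to 574, and Pcna is higher in adult MV (1326 to 1532) than in adult controls (973 to 1189).

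Ventilation alone called fewer members in juveniles. In all, 6 fell and 0 rose, with a median of -0.37, where 10.9% of all genes passed and 6.45% fell. The 6 were Mcm6 (-0.63 ± 0.16, limma adjusted p = 0.014), Mcm7, Kif23 (-0.61 ± 0.19, 0.036), Rrm1, Mcm3 (-0.28 ± 0.09, 0.048) and Pcna, and in each the MV arrays overlapped the controls. This count was 0 with the 2 groups alone in the fit, 0 without control replicate 1, 0 without MV replicate 3, 20 without control replicate 4, 7 without control replicates 1 and 4 together and 17 with array weights, which count arrays far from their group less.

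With LPS followed by ventilation, 24 members fell and 0 rose in juveniles (median -0.51), where 31.3% of all genes passed and 20.5% fell. Mcm6 and Mcm7 had the smallest p, with Mcm6 falling by 1.05 ± 0.16 (limma adjusted p = 1.9e-05), followed by Kif23 (-0.79 ± 0.19, 0.0022) and Rrm1. The LPS+MV arrays lay below every control for 6 members, Mcm3, Mcm6, Mcm7, Gins2, Rrm1 and Kif23, against 20.5% of all genes tested. Replicates 1 and 2 of the 3 LPS+MV arrays were high and replicate 3 was the lowest for 32 of the 34 members. Without LPS+MV replicate 3 the count was 6, without control replicate 1 it was 9, without control replicate 4 it was 31, and with the 2 groups alone in the fit 2 members, Mcm6 and Mcm7, passed. Without control replicates 1 and 4 together it was 25. Xist, a transcript of the inactive X chromosome, was high on 2 of 3 LPS+MV arrays and 1 of 4 controls, and with an Xist term in the fit 15 members passed. Mcm5, Mcm6, Mcm7, Rrm1 and Kif23 passed with each array left out in turn. In the direct comparison of LPS+MV with LPS, 0 members passed with limma (3 had an unadjusted p under 0.05, median difference 0.12, 15.4% of all genes passed), and likewise 0 in that with MV (3 unadjusted, median -0.17, 14.7% of all genes). Mki67 was 0.79 ± 0.32 higher with LPS+MV than with LPS alone (adjusted p = 0.10). In the test of whether LPS and MV added up in juveniles, 0 members passed, with 0.749% of all genes passing, and the median interaction was 0.45. There 13 members had an unadjusted p under 0.05, a threshold for which no share of all genes is given here. These 3 counts of 0 were 10, 4 and 15 with array weights. They ran from 0 to 1, 0 to 3 and 0 to 3 with 1 array left out, and were 1, 0 and 0 with the compared groups alone. Without control replicates 1 and 4 together 1 member passed for the interaction.

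In adults the set as a whole stayed near the control level and a few members moved, in both directions. With MV 2 rose and 1 fell (median -0.01, all genes -0.064, 31.5% of all genes passing), with LPS 0 rose and 3 fell (median -0.13, 36.0%), and with LPS+MV 2 rose and 4 fell (median -0.08, 42.1%). These shares of members were all below the share of all genes in the fit of all 8 groups. The juvenile controls widen the spread of members in that fit (median SD 0.59, against 0.10 to 0.12 in the adult groups). Members are thus harder to call in adults there, and counts with the compared groups alone are given below. Over all genes, 7.17% rose with MV and 14.8% with LPS+MV. Of the genes called with MV, 77.2% were lower, and 58.5% after quantile normalization. Among mitotic kinases, cyclins, centromere and spindle genes, 0 of 15 passed in any of the 3. For Mki67 the differences were -0.11, -0.19 and -0.02, each ± 0.30, with arrays at 116, 76.8, 76.4 and 48.1 in controls, 83.7, 64.1, 63 and 65.9 after MV, 42.1, 50.1, 68.7 and 102 after LPS, and 69.4, 73.1, 55.6 and 109.9 after LPS+MV. The control range held every treated Mki67 array except the LPS array at 42.1.

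**Figure D3:**
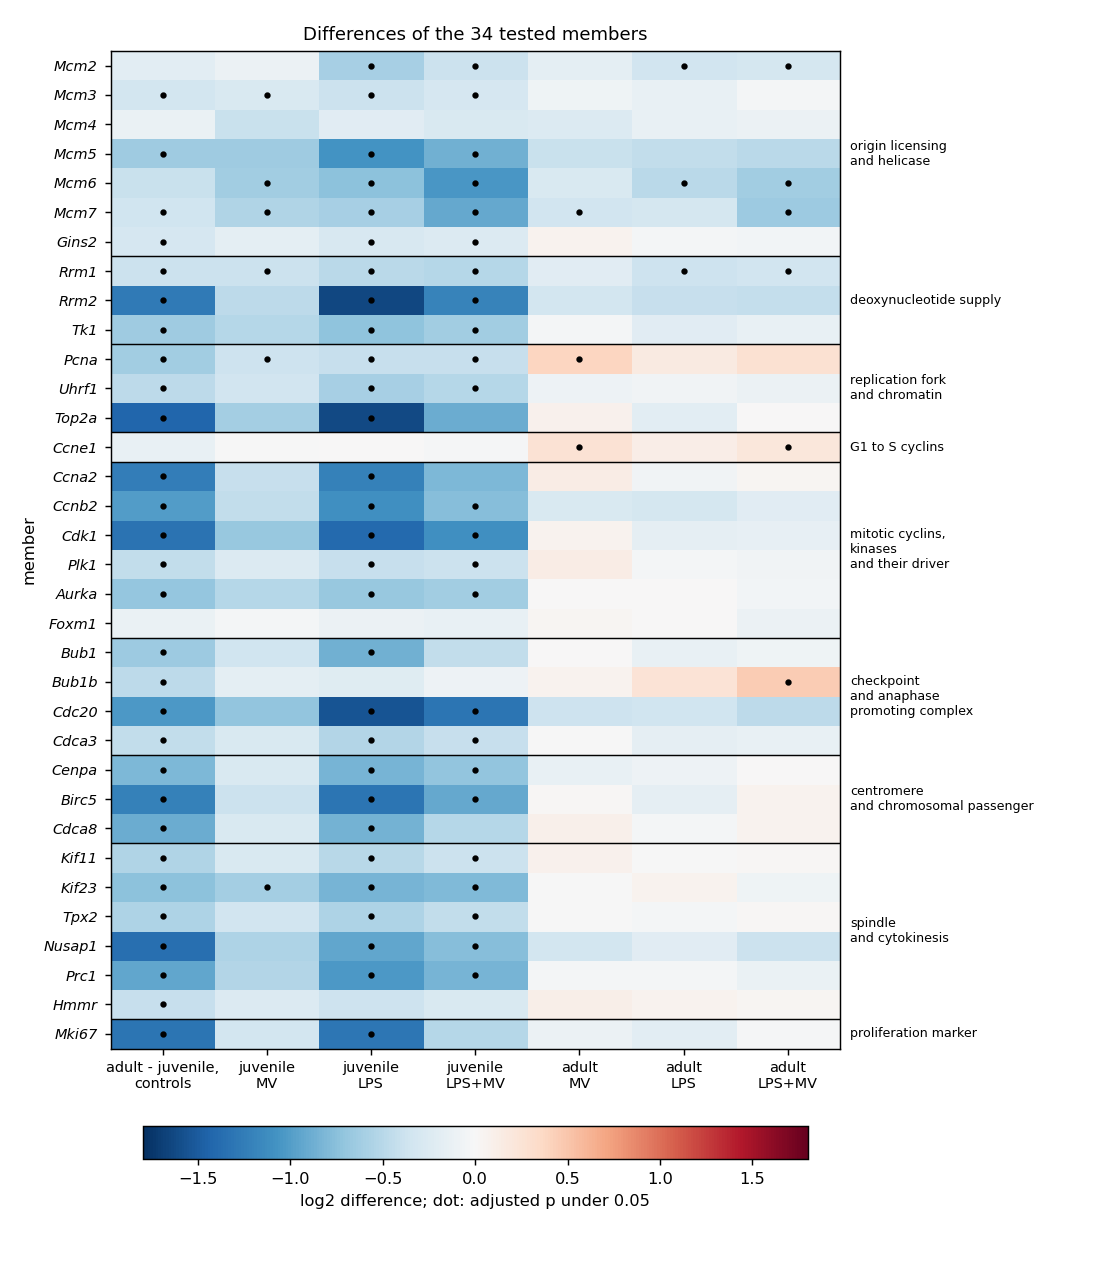
Log2 differences (colour) of the 34 tested members (rows, by role) in 7 comparisons (columns), adult against juvenile controls and each treatment against the controls of its age. Dots mark an adjusted p under 0.05, which 29 members reach with LPS in juveniles and 3 in adults.

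The members that fell in adults were helicase subunits and Rrm1. Mcm7 was at 256, 267, 277 and 273 in adult controls, 216, 194, 169.9 and 240.5 after MV, 172, 215, 218 and 230.4 after LPS, and 138, 182, 149 and 169.7 after LPS+MV. Every treated array lay below every control. Mcm7 fell by 0.65 ± 0.13 with LPS+MV (limma adjusted p = 0.00028) and by 0.35 ± 0.13 with MV (0.047), and did not pass with LPS (-0.32 ± 0.13, 0.059). Mcm6, shown for its small p in both ages after its values were seen, was at 239.5, 197, 206 and 172 in adult controls, 132, 141, 133 and 138 after LPS, and 112, 128, 109 and 129 after LPS+MV, with no overlap. It fell by 0.48 ± 0.15 with LPS (0.015) and by 0.63 ± 0.15 with LPS+MV (0.0014). Rrm1 was at 139, 128, 136 and 111 in adult controls, 114, 98.4, 87.7 and 133 after MV, 85.6, 87, 98.6 and 97.9 after LPS, and 87.2, 94.4, 85.6 and 109 after LPS+MV. Rrm1 fell by 0.37 ± 0.12 with LPS (0.014) and by 0.35 ± 0.12 with LPS+MV (0.016), and Mcm2 by 0.34 ± 0.12 (0.028) and 0.31 ± 0.12 (0.038). With LPS+MV, the other Mcm7 probe sets differed by -0.55, -0.28 and -0.21 (adjusted p = 0.00014, 0.044 and 0.11 over probe sets) and the other Rrm1 probe set by -0.28 (0.13). The Mcm2 calls were lost when any of several single arrays was left out, with adjusted p up to 0.081 with LPS and 0.11 with LPS+MV, and the Mcm7 call with MV had an adjusted p of up to 0.17. The call of Mcm6 with LPS was lost without adult control replicate 1 (0.055).

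The members that rose in adults were Pcna, Ccne1 and Bub1b. Pcna was at 1189, 1048, 1058 and 973 in adult controls, 1396, 1336, 1326 and 1532 after MV, 1153, 1084, 1207 and 1339 after LPS, and 1300, 1252, 1310 and 1304 after LPS+MV. Every ventilated array, with or without LPS, lay above every control, and LPS arrays overlapped them. Pcna rose by 0.38 ± 0.11 with MV (limma adjusted p = 0.011), and the difference was 0.27 ± 0.11 with LPS+MV (0.054) and 0.16 ± 0.11 with LPS (0.29). Ccne1 was at 24.1, 30.3, 30.4 and 24.8 in adult controls, 40.1, 36.7, 37.2 and 41.8 after MV, 29.7, 31.9, 34.4 and 34.7 after LPS, and 40.2, 34.8, 39.9 and 31.5 after LPS+MV. Ccne1 rose by 0.26 ± 0.06 with MV (0.0012) and by 0.21 ± 0.06 with LPS+MV (0.0043), in both with no overlap, and had a difference of 0.12 ± 0.06 with LPS (0.092). This Ccne1 probe set may also bind related transcripts, and the other, dimmer Ccne1 probe set differed by 0.02 ± 0.05 with MV (adjusted p = 0.82 over probe sets) and 0.04 ± 0.05 with LPS+MV (0.60). Bub1b, also shown after its values were seen, was at 43.3, 38.8, 32.8 and 37.7 in adult controls and 65.4, 55.5, 63.2 and 73.5 after LPS+MV, and it rose by 0.46 ± 0.14 (0.011), while its other probe sets differed by 0.37 ± 0.13 (0.029 over probe sets) and 0.04 ± 0.05 (0.57). Xist was high on 4 of 4 adult MV and 3 of 4 adult LPS+MV arrays, and on 0 of 4 adult control and 0 of 4 adult LPS arrays. In adults, ventilation and high Xist thus nearly coincided, and their parts in these differences cannot be told apart. A fit with an Xist term left Ccne1 as the member called with MV (0.24 ± 0.08, 0.040), with Pcna at 0.43 ± 0.15 (0.054) and Mcm7 at -0.17 ± 0.17 (0.55). With LPS+MV, Mcm2 and Rrm1 did not pass in that fit.

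With the compared groups alone in the fit, adults had 6 members called with MV, 8 with LPS and 11 with LPS+MV. The share of all genes passing in these fits is not given here. Rrm2 was at 91.7, 50.1, 55.1 and 47.8 in adult controls, 51.5, 39.3, 25.6 and 51.2 after MV, 30.5, 28, 45.5 and 42.9 after LPS, and 21.9, 33.8, 26.3 and 72.4 after LPS+MV. LPS arrays lay below every control, and the difference of -0.42 ± 0.30 did not pass (limma adjusted p = 0.29). Top2a was at 103, 79.1, 59.6 and 36.7 in controls, 73, 68.4, 56 and 93.2 after MV, 40.4, 43.1, 54.7 and 85.5 after LPS, and 61.6, 65.9, 52.5 and 90.5 after LPS+MV. Cdk1 was at 92.7, 65, 55.4 and 53.6 in controls, 58.5, 77.6, 63.5 and 83.7 after MV, 36.6, 53.4, 62.8 and 71.6 after LPS, and 54.3, 55.3, 50.1 and 65.8 after LPS+MV. Cdc20 was at 184, 136, 110 and 93.3 in controls, 84.3, 103, 76.4 and 105 after MV, 66.5, 84.8, 109.8 and 115 after LPS, and 82.7, 94.2, 82.9 and 72.4 after LPS+MV. Cenpa was at 52.5, 47.5, 35.2 and 33.1 in controls, 32.3, 35.5, 34.9 and 38.5 after MV, 34.1, 28.2, 38.9 and 49.3 after LPS, and 32.9, 44.3, 47.7 and 41.9 after LPS+MV. In Top2a, Cdk1, Cdc20 and Cenpa, treated and control arrays overlapped in all 3 treatments. In adults 0 members passed between LPS+MV and LPS (limma, 1 with an unadjusted p under 0.05, 7.04% of all genes), between LPS+MV and MV (3 unadjusted, 17.4% of all genes) or for the interaction of LPS and MV (1 unadjusted, 7.16% of all genes). The lower share of all called genes was 47.6%, 30.8% and 23.2% in these, and 57.6%, 57.1% and 53.1% after quantile normalization.

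The ages were then compared under each treatment. After LPS, 0 of the 34 members passed between adults and juveniles with limma (2 had an unadjusted p under 0.05, median -0.05, 16.4% of all genes passed). After LPS+MV 1 member, Nusap1, was lower in adults (-0.96 ± 0.24, adjusted p = 0.0078, median of members -0.13, 12.2% of all genes passing). After MV 6 were lower in adults and 0 higher (median -0.21, 23.3% of all genes, of which 64.3% were lower, or 46.8% after quantile normalization), with Nusap1 (-1.12 ± 0.24, 0.0012), Rrm2 (-1.13 ± 0.33, 0.012), Mki67 (-1.10 ± 0.32, 0.014) and Cenpa (-0.67 ± 0.21, 0.020) having the smallest p. Nusap1 was at 78.9, 53.7, 59 and 46.1 in adult controls, 39.2, 36.8, 35.1 and 51.3 after MV, 40.2, 43.3, 56.5 and 47.6 after LPS, and 37.6, 30.1, 35.7 and 48.6 after LPS+MV. Adult Nusap1 was thus below the juvenile arrays of the same treatment in controls, MV, LPS and LPS+MV alike, although its difference after LPS did not pass (-0.62 ± 0.22, 0.056). Without juvenile MV replicate 2 the count after MV was 1, with an Xist term it was 1, with the compared groups alone it was 13, and with array weights it was 14. Array weights gave 1 member after LPS and 14 after LPS+MV. For LPS+MV the Nusap1 call was lost without juvenile LPS+MV replicate 1 or 2.

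Whether the response itself differed with age was tested as the interaction of age and treatment, adult minus juvenile response. Pcna passed for MV (0.75 ± 0.17, limma adjusted p = 0.0088), for LPS (0.58 ± 0.16, 0.039) and for LPS+MV (0.69 ± 0.17, 0.028). Kif23 passed for LPS (0.88 ± 0.25, 0.043). No other member passed, and 6.13%, 3.69% and 2.10% of all genes did. Of the genes called for MV, 78.8% had an interaction below 0, and 53.8% after quantile normalization. These 3 tests share the controls of both ages. The median interaction over members was 0.31 for MV, 0.56 for LPS and 0.44 for LPS+MV, and 25 members had an unadjusted p under 0.05 for LPS, 5 for MV and 8 for LPS+MV. The share of all genes at that unadjusted threshold is not given here, so an excess of members cannot be read from these counts. For LPS, 22 members passed without juvenile control replicate 4, 1 without replicate 1 and 11 without both. For LPS+MV these counts were 12, 0 and 2, and for MV 6, 1 and 1. With the compared groups alone in the fit 0 passed in any of the 3, the adjusted p of Pcna being 0.055 for MV, 0.098 for LPS and 0.11 for LPS+MV. With array weights 8 passed for MV, 21 for LPS and 8 for LPS+MV. The share of all genes passing under these other fits is not given here. In adults, ventilation nearly coincided with high Xist, so the interactions with MV and LPS+MV cannot be told apart from it.

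**Figure D4:**
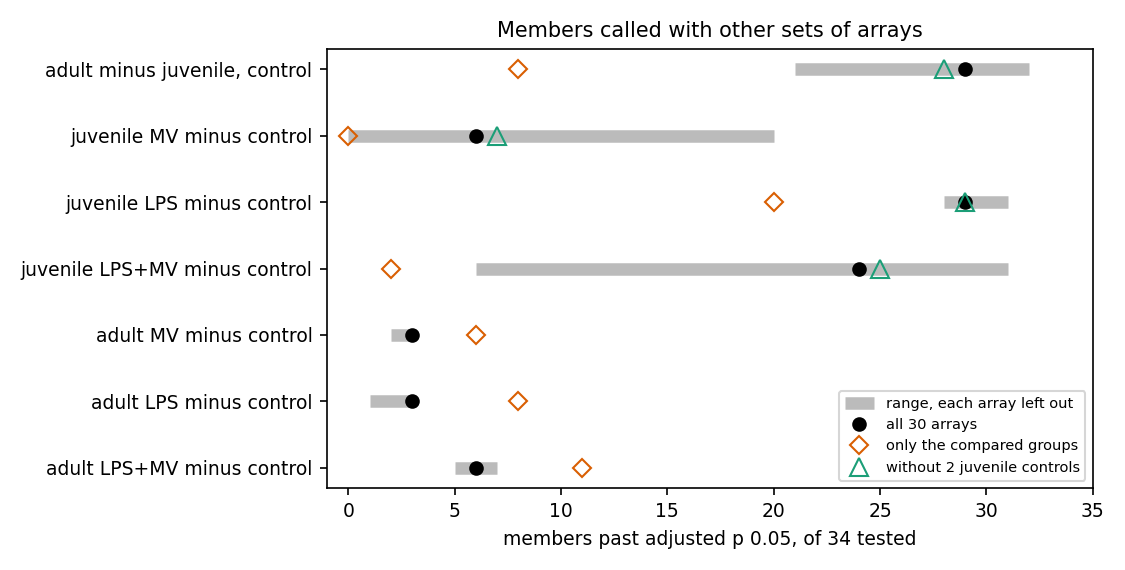
Number of the 34 tested members past an adjusted p of 0.05 (horizontal axis) in 7 comparisons (vertical axis), with black points for the fit of all 30 arrays, grey bars for the range when each array of the compared groups is left out, diamonds for fits of the compared groups alone and triangles without juvenile control replicates 1 and 4. The juvenile LPS count stays between 20 and 31, and the juvenile LPS+MV count runs from 2 to 31.

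Other genes of the cell cycle were read from lists. In juveniles with LPS, 39 of 53 further mitosis genes fell and 0 rose, led by the condensin subunit Ncaph (-1.05 ± 0.10, limma adjusted p = 3.9e-09) and the microtubule destabilizer Stmn1 (-0.83 ± 0.13, 1.3e-05). Of 41 further replication genes 18 fell, among them the single-strand binding subunit Rpa1 (-0.68 ± 0.09, 1.6e-06) and the licensing factor Cdt1 (-0.71 ± 0.13, 0.00011), and 1, the fork protection gene Timeless, rose (0.63 ± 0.11, 4.7e-05). Of 17 E2F, RB and MuvB factors 7 fell, including E2f2 (-0.55 ± 0.11, 0.00027) and Rbl2 (-0.44 ± 0.09, 0.00054). Cdk4 (-0.42 ± 0.08, 0.00036) and Ccnd3 (-0.54 ± 0.09, 6.2e-05) were the 2 of 8 G1 cyclins and kinases that fell. Of 14 inhibitors and growth arrest genes 3 rose, the antiproliferative gene Btg1 (1.07 ± 0.08, 1.5e-11), Gadd45b (1.23 ± 0.18, 7.8e-06) and Gadd45g, and 3 fell, among them the CDK inhibitor Cdkn2c (-0.99 ± 0.16, 3.1e-05) and the Cdk1-restraining kinase Wee1 (-0.85 ± 0.15, 7.3e-05). Of all genes tested, 13.3% fell and 9.58% rose in this comparison. The list medians were -0.52 for mitosis and -0.19 for replication, against -0.029 for all genes. With the 2 groups alone in the fit 17 mitosis genes, 11 replication genes and 4 E2F, RB and MuvB factors fell. Without control replicate 1 these counts were 32, 11 and 4, and without control replicates 1 and 4 together they were 36, 15 and 6. The E2F, RB and MuvB count was also 4 without LPS replicate 1.

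In adults, the replication and mitosis lists gave different counts, which were not tested against each other. With LPS, 10 of 41 replication genes fell and 2 rose, led among those lower by Gmnn, the inhibitor of relicensing (-0.95 ± 0.16, limma adjusted p = 5.7e-05), the maintenance methyltransferase Dnmt1 (-0.53 ± 0.10, 8.0e-05) and the polymerase delta subunit Pold2 (-0.50 ± 0.09, 4.4e-05), while 1 of 53 mitosis genes fell (Stmn1, -0.36 ± 0.13, 0.028) and 1 rose (Lmnb1, a nuclear lamin, 0.58 ± 0.16, 0.0059). With LPS+MV, 16 replication genes fell and 3 rose, and 5 mitosis genes fell and 1 rose. With MV, 8 replication genes fell and 2 rose, and 0 of 53 mitosis genes passed (4 with an unadjusted p under 0.05). These shares of lower genes stand against 23.0%, 27.3% and 24.3% of all genes that fell. In adults, ventilation nearly coincided with high Xist, so the counts with MV and LPS+MV cannot be told apart from it. Of the 14 inhibitors and growth arrest genes, 6 rose with LPS, among them Gadd45g (2.40 ± 0.21, 8.0e-10), the p21 gene Cdkn1a (1.54 ± 0.26, 4.1e-05), Gadd45b (1.32 ± 0.18, 2.2e-06) and Btg1 (0.89 ± 0.08, 7.2e-10), and 3 fell. With LPS+MV 8 rose and 4 fell. Of all genes tested, 12.9% rose with LPS and 14.8% with LPS+MV. The transcription factor Myb fell by 1.05 ± 0.13 with LPS (5.1e-07) and by 1.09 ± 0.13 with LPS+MV (1.9e-07), and E2f2 by 0.80 ± 0.11 with LPS+MV (8.9e-07). Between the controls, 41 of 53 mitosis genes were lower in adults, led by Ncaph (-1.02 ± 0.10, 4.3e-08) and the ubiquitin-conjugating enzyme gene Ube2c (-1.72 ± 0.23, 4.0e-06), and 6 of 41 replication genes were, where 10.1% of all genes were lower in adults. With the 2 control groups alone in the fit these counts were 8 and 3, without juvenile control replicate 1 they were 19 and 3, without juvenile control replicate 4 they were 47 and 18, without adult control replicate 4 they were 26 and 4, and without juvenile control replicates 1 and 4 together they were 36 and 10.

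Markers of other cells that divide or travel with lung tissue were measured beside these genes. The thymocyte genes Rag1, Ptcra and Arpp21 were not above the array median on any array (highest 12.6, 15.2 and 12.4). The mean of the 7 tested thymocyte genes was 6.26 to 6.31 in the juvenile controls, 6.22 to 6.54 on all arrays. In juvenile MV, Cd8b1 ran from 30 to 123 and Themis from 16.3 to 30.6. Dntt (18.4 to 22.3) and Rag2 (16.8 to 17.2) varied less there. The T cell genes Cd3d (69.8 to 212) and Cd3g (35.5 to 130) also ran widely on these arrays. With MV in juveniles, 0 of the 7 thymocyte genes were called with limma, and 2 were higher with an unadjusted p under 0.05. The granulocyte precursor genes Elane and Ctsg reached 19.6 and 16.3, while Ngp ran from 29.5 to 485 and Prtn3 from 23.9 to 71.5 in adult controls. Of the 7 erythroid genes tested, 7 were lower in adult than in juvenile controls (median -1.17), 4 fell with MV and 2 with LPS in juveniles, and 5 fell with MV, 0 with LPS and 5 with LPS+MV in adults. The counts of this paragraph stand against shares of all genes tested. Of these, 10.1% were lower in adult controls, and 6.45% fell with MV and 13.3% with LPS in juveniles. In adults 24.3% fell with MV, 23.0% with LPS and 27.3% with LPS+MV. Of all genes called with MV in adults 77.2% were lower, and 58.5% after quantile normalization. The mean of the 7 erythroid genes was 8.89, 9.10, 9.23 and 9.46 on juvenile control replicates 1 to 4. The mean of 8 cardiac muscle genes was 10.02, 9.46, 9.48 and 9.34 on these arrays, with 0 of 8 called with LPS in juveniles. Of 8 fibroblast genes, 6 were lower in adult than in juvenile controls, and 3 fell with LPS in juveniles, where their mean was 10.91 to 11.17 against 11.20 to 11.46 in controls. The 3 were 1 without control replicate 2, without LPS replicate 3 or without control replicates 1 and 4 together. The 2 erythroid genes that fell with LPS in juveniles were 0 to 4 with 1 array left out, and the 4 that fell with MV were 0 with the 2 groups alone in the fit. In adults, 5 of the 8 fibroblast genes fell with each of MV, LPS and LPS+MV (0, 0 and 1 rose). Their mean was 10.54 to 10.63 in adult controls, 9.88 to 10.30 after MV, 10.04 to 10.23 after LPS and 9.86 to 10.30 after LPS+MV, with every treated array below every control. Of 8 alveolar type 1 genes 6 fell and 0 rose with each treatment in adults, with a mean of 11.22 to 11.33 in controls, 10.84 to 11.06 after MV, at most 11.08 after LPS and 10.81 to 10.94 after LPS+MV. Of 8 endothelial genes 3 fell with MV, 5 with LPS and 5 with LPS+MV in adults, and 0 rose. Their mean was 9.90 to 10.11 in controls, 9.65 to 9.93 after MV, 9.43 to 9.73 after LPS and 9.47 to 9.70 after LPS+MV. Of 7 alveolar type 2 genes 3 fell with MV, 3 with LPS and 5 with LPS+MV in adults, and 1, 1 and 0 rose. Their mean was 11.96 to 12.04 in controls, 11.65 to 11.84 after MV, 11.37 to 11.50 after LPS and 11.19 to 11.41 after LPS+MV. The list median difference was -0.26 with MV, -0.23 with LPS and -0.53 with LPS+MV. Etv5 was at 550 to 600 in adult controls, 97 to 114 after LPS and 52 to 70.7 after LPS+MV. Sftpb was at 6210 to 6830 in controls and 3470 to 4540 after LPS. Sftpc was at 18200 to 20600 in controls and 18800 to 20800 after LPS, and Sftpa1 at 10900 to 12300 and 12200 to 13100. Of 9 alveolar macrophage genes in adults, 2 rose and 0 fell with MV, and likewise with LPS+MV. With LPS 2 of them rose and 3 fell. Of 7 B and T lymphocyte genes in adults, 3 fell with MV, 1 with LPS and 4 with LPS+MV, and 0 rose. Over all genes tested, 7.17% rose with MV, 12.9% with LPS and 14.8% with LPS+MV in adults. In juveniles with LPS, 2 alveolar type 1, 2 alveolar type 2 and 1 endothelial gene fell and 0 rose. Of 5 granulocyte precursor genes tested, 2 rose with MV, 0 were called with LPS and 3 rose with LPS+MV in juveniles. There 10.9%, 22.9% and 31.3% of all genes passed in either direction. In adults 1 of the 5 rose with MV, 0 were called with LPS and 1 fell with LPS+MV. In adults, ventilation nearly coincided with high Xist, so the marker counts with MV and LPS+MV cannot be told apart from it. The part of these cells in the differences of the members was not tested.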

How the data were processed

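RNA from the lungs of 30 mice was measured on 30 single-colour Affymetrix arrays. Intensity values were deposited by the authors on a linear scale for 45037 probe sets, and MAS5 is named in the submitters' processing notes. Which summary and scaling steps were used is not given in the sources used here. The deposited intensities were turned to log2(intensity + 32). A probe set was kept if it exceeded the median of its array on 3 or more arrays, and the probe set with the highest mean stood for its gene (13089 genes). For 19 members several probe sets passed, and 0 of these had probe sets called in opposite directions in any comparison; where the report gives another probe set, its p was adjusted over all probe sets kept. Symbols came from the platform annotation, where 932 probe sets carrying several symbols were left out. A linear model with 8 group means was fitted with limma 3.58.1 (R 4.3.3, lmFit and eBayes with an intensity trend, 22 residual degrees of freedom), and p-values were adjusted by Benjamini and Hochberg over all genes of each of 19 comparisons. The number of arrays limits the precision.

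The members and lists were chosen with earlier results of these data known. Values on every array are given for the brightest tested member of each role and for Mki67, Rrm2 and Top2a. In each comparison, up to 4 members with the smallest p in each direction are named, as are up to 4 genes of each further list, and any member may be named. Promoters were limited to 1 per role, with priority to those holding a motif. Fitting all groups together gives them 1 spread, although the juvenile controls were wider. Alternatives were no trend, array weights, no filter, the compared groups alone, quantile normalization, averaged probe sets, a pseudocount of 1, a replicate block, a term for Xist (above or below an intensity of 100) and leaving out arrays. Leaving out juvenile control replicates 1 and 4 together, and recounting the further lists and marker lists with other arrays or groups, were chosen after seeing the data. Sequences are from RefSeq.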

Additional observations from a re-analysis of the deposited data

Results flagged for a closer look

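Dixon's test at the 95% level was applied to 72 sets of 4 arrays, 1 group and member at a time, and an array stood apart in 3 of them, where chance gives about 1 in 20. Pcna on juvenile LPS replicate 3 was at 1327 with the other arrays at 1200 to 1217 (gap over range 0.866). Mki67 on adult MV replicate 1 was at 83.7 with the others at 63 to 65.9 (0.845). Pcna on adult LPS+MV replicate 2 was at 1252 with the others at 1300 to 1310 (0.841).

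In the fit of all groups, members of the set passed in 4 tests of an interaction of age and treatment, adult minus juvenile response. For Pcna the interaction was 0.75 with MV, 0.58 with LPS and 0.69 with LPS+MV, and for Kif23 it was 0.88 with LPS. The Pcna values for LPS and LPS+MV and the Kif23 value lost their call when some single arrays were left out (highest adjusted p 0.091, 0.078 and 0.086), and the Pcna call for MV held with each array left out. With the compared groups alone in the fit, none of these calls held. Xist was high on 4 of 4 adult MV and 0 of 4 adult control arrays, which leaving out a single array does not address.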

How the results depend on the processing

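Counts of members past the threshold were compared over 19 comparisons. The share of all genes passing under each alternative is not given, so these counts cannot be set against the shares of the main fit. Of the values under alternatives other than leaving out 1 array, 138 stayed within 1.5 times the reported count and 41 did not, and 0 gene directions reversed among calls. The mean over probe sets, no intensity trend and a replicate block moved no count. Replicate numbers were not taken as pairs in the main fit, because the labels do not say that they mark pairs. Of 99 same-numbered pairs of arrays from different groups, 37 correlated above 0.1 (median 0.031). Of 294 pairs with other numbers 46 did (median -0.012). Whether arrays with the same number share a batch was not tested. The replicate block gave 29 with LPS in juveniles. Quantile normalization gave 2 for adult LPS+MV against MV, 2 for age by MV and 1 for age by LPS. A pseudocount of 1 gave 1 for juvenile LPS+MV against LPS, 1 for adult LPS+MV against MV and 1 for age after LPS. No filter gave 3 for juvenile MV and 0 for age by LPS. Array weights gave 17 for juvenile MV, 10 and 4 for juvenile LPS+MV against LPS and MV, 15 for the juvenile interaction, 1 and 3 for adult LPS+MV against LPS and MV, 14, 1 and 14 for age after MV, LPS and LPS+MV, and 8, 21 and 8 for age by MV, LPS and LPS+MV. The Xist term gave 15 for juvenile LPS+MV, 1 for juvenile LPS+MV against LPS, 1 for adult MV and 1 for age after MV. The compared groups alone gave 8 between controls, 0 for juvenile MV, 2 for juvenile LPS+MV, 1 for juvenile LPS+MV against LPS, 6, 8 and 11 for adult MV, LPS and LPS+MV, 3 for adult LPS+MV against MV, 13, 2 and 0 for age after MV, LPS and LPS+MV, and 0 for each age interaction. Without juvenile control replicates 1 and 4 together the juvenile interaction gave 1, age by LPS 11 and age by LPS+MV 2. The cause of these changes was not tested.

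Leaving out 1 array at a time, the count ran from 21 to 32 between controls, 0 to 20 for juvenile MV, 28 to 31 for juvenile LPS, 6 to 31 for juvenile LPS+MV, 0 to 1 and 0 to 3 for juvenile LPS+MV against LPS and MV, 0 to 3 for the juvenile interaction, 2 to 3, 1 to 3 and 5 to 7 for adult MV, LPS and LPS+MV, 1 to 6, 0 to 1 and 0 to 2 for age after MV, LPS and LPS+MV, and 1 to 6, 0 to 22 and 0 to 12 for age by MV, LPS and LPS+MV. Dim members are limited by signal over background: Kif11 and Tpx2 were above the array median on 6 arrays.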
